A study of Mus musculus with 6 samples.

Results

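Immunoglobulin variable (V) segments are the germline gene pieces that encode most of the antigen-binding domain of an antibody. The 60 segments described here were chosen by symbol (Ighv, Igkv or Iglv followed by a digit) and by a count of at least 10 summed over the 6 libraries. The gene table held 348 V segment rows, of which 235 had no count, 53 had 1 to 9 counts and 60 were kept, among 57186 rows in all. Because the threshold was set on the measured counts, the levels of the kept segments are a description, and no p-value is given for their sums, numbers or evenness. At the threshold, 17 kept segments had 10 to 12 counts and 12 segments left out had 8 or 9.

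RNA was sequenced in bulk from MB49 tumours after a sort for CD45-negative cells. MB49 is a mouse bladder carcinoma line of male origin. Y-KO cells carried a CRISPR knockout of the Y chromosome and Y-Scr cells were the CRISPR scrambled control. Both were injected subcutaneously into C57Bl/6J mice, which have their own B cells, and the tumours were harvested at 500 mm3. Each group had 3 libraries, all with 1 batch label. The age and sex of the mice, and whether Y-KO is 1 clone, are not given in the labels. The labels do not tie replicates to separate animals, so a p-value reflects the spread of these libraries alone, and that spread may be technical.

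In a developing B cell, recombination joins 1 V segment to a joining (J) segment, with a diversity (D) segment between them in the heavy chain, and the joined exon is spliced to a constant gene. Each B cell thereby transcribes mainly 1 heavy and 1 light chain V segment, the light chain being kappa or lambda, and its descendants keep the same segments. Plasma cells, the antibody-secreting descendants of B cells, contain far more immunoglobulin RNA per cell than resting B cells. In bulk RNA, fewer cells of a type and less RNA per cell cannot be told apart.

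The libraries held 42040955 to 52951031 counts. The Y-linked demethylase gene Kdm5d stood at 4.42, 3.79 and 1.77 CPM (counts relative to 1000000 counts of the TMM-adjusted library size) in Y-KO and at 39.3, 46.7 and 45.9 in Y-Scr, so the targeted chromosome followed the labels. Y-KO replicate 3 stood apart: its median absolute log2 difference over 17837 genes was 0.342 from Y-KO replicate 1 and 0.353 from Y-KO replicate 2, against 0.179 between those and 0.135 to 0.195 among the Y-Scr libraries. From Y-Scr replicates 1 to 3 it differed by 0.332, 0.366 and 0.375, so it lay nearer to Y-Scr replicate 1 than to its own group. Y-KO replicates 1 and 2 differed from the Y-Scr libraries by 0.377 to 0.411. The CD45 gene Ptprc was measured in all libraries of this CD45-negative sort, with a mean of 242 ± 93.1 CPM for Y-KO and 567 ± 41.4 CPM for Y-Scr (SD, n = 3). The summed level of 10 pan-leukocyte genes was 2624, 2675 and 1247 CPM in Y-KO and 3448, 3343 and 3415 CPM in Y-Scr, and its part in the V segment values was not tested. Of the 10, 4 were lower in Y-KO and 0 higher (Ptprc, Cd52, Ikzf1 and Vav1), against 8.27% and 7.82% of all genes tested. All 4 calls were lost when any 1 Y-Scr library was left out (for Ptprc, edgeR adjusted p from 0.0550 to 0.0746) and with the close library pairs summed (Y-KO 1 with 2, Y-Scr 2 with 3; 0.116 for Ptprc), and Vav1 was also lost without Y-KO replicate 1 (0.0625).

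The 60 segments comprised 26 of the 185 heavy chain V rows (chromosome 12, 113536547 to 115973713, GRCm39), 33 of the 160 kappa V rows (chromosome 6, 67532481 to 70681161) and 1 of the 3 lambda V rows (chromosome 16, 18903767 to 19079609). Matched by gene ID to the GENCODE M21 annotation, 58 were functional V genes, out of 216 such rows, and 2 were V pseudogenes, out of 130. Exon lengths summed to 347 to 425 bases, with a median of 365.5.

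Germline coding sequences are given for 4 segments that were counted in 1 group only, from the GENCODE M21 transcripts (GRCm38). The first 3 had the most counts of their chain among segments counted in all Y-Scr libraries and in no Y-KO library, and the last had the most among those counted in Y-KO only. The last 250 bases of each are printed. Capitals run from the codon of the second conserved cysteine to the end of the segment. Past that cysteine lies the start of the third complementarity-determining region, where the J or D segment is joined.
Igkv1-117: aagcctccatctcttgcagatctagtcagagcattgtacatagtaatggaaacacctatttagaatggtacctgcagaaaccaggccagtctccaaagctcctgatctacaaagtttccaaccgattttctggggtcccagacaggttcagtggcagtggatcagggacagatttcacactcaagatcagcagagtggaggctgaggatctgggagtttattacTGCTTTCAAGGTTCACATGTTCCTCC
Iglv1: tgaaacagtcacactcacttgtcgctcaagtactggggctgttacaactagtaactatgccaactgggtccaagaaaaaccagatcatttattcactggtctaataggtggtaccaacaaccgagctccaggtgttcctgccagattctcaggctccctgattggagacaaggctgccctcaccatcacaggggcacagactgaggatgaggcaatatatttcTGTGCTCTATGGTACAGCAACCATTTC
Ighv1-64: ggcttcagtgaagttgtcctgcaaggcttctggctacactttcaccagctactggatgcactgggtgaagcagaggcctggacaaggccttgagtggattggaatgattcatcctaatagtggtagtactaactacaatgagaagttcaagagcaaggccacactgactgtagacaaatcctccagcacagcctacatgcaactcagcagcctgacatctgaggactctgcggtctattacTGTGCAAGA
Igkv2-112: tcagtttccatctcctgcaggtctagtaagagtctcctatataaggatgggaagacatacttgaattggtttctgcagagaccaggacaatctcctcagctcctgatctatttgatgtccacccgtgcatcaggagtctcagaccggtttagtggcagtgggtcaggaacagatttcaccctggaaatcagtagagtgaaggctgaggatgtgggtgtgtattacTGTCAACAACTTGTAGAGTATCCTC

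Ighv1-26 and Ighv1-22 are shown together because Ighv1-22 was the 1 segment counted in all 6 libraries and Ighv1-26 had the most heavy chain counts. Capitals mark the 12 bases at which they differ over 351 coding bases (96.6% identity), and bases 33 to 332 are printed.
Ighv1-26: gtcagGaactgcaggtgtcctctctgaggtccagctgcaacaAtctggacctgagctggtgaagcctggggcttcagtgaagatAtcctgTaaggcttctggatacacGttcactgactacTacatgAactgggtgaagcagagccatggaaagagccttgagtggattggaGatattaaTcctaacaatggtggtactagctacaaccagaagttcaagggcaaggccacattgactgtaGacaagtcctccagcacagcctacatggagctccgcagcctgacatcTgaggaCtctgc
Ighv1-22: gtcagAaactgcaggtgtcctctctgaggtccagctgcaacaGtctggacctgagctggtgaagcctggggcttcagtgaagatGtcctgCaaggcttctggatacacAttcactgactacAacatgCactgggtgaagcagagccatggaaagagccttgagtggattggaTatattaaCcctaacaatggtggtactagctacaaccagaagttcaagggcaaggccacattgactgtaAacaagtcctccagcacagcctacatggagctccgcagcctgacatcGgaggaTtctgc

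Such likeness limits which segment a read can be assigned to, since reads that fit several places were left out by the counter's defaults. Among the 58 kept V genes with a sequence, a median of 69.4% of the 50-base windows occurred in no other V gene, against 79.1% among the 158 V genes that were not kept. The share was 51.0% for Ighv1-26 and 27.1% for Igkv4-59, and it was under 50% in 9 kept segments. Counts of such segments are uncertain.

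V segment transcripts made up a smaller part of the Y-KO libraries than of the Y-Scr libraries. The 60 segments together had 94, 178 and 42 counts in Y-KO replicates 1 to 3 and 439, 370 and 320 in Y-Scr. Relative to 1000000 counts of the library total (raw CPM, without TMM scaling) this was 1.84 (95% exact Clopper-Pearson interval 1.49 to 2.25), 3.80 (3.26 to 4.40) and 0.913 (0.658 to 1.23) in Y-KO. In Y-Scr it was 8.29 (7.53 to 9.10), 8.80 (7.93 to 9.75) and 6.32 (5.65 to 7.05). The groups did not overlap. The 3 Y-KO intervals did not overlap each other either, but they treat each read as independent. They may be too narrow where both reads of a pair were counted, so that separation within Y-KO is uncertain. The means were 2.19 ± 1.47 (SD, n = 3) and 7.80 ± 1.31 raw CPM, 3.57-fold apart. Without Y-KO replicate 2, the highest of its group, the ratio of Y-KO to Y-Scr went from 0.280 to 0.176.

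**Figure D1:**
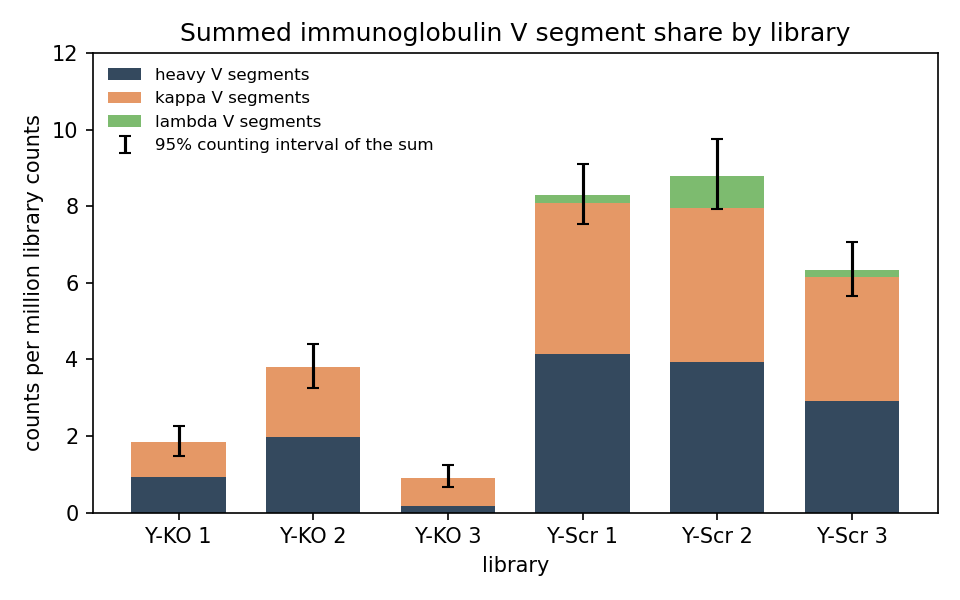
Stacked bars of the summed V segment level in each library (vertical axis, raw CPM), split into heavy, kappa and lambda segments, with the 95% counting interval of the sum as error bars. The Y-KO bars end at 1.84, 3.80 and 0.913 and the Y-Scr bars at 8.29, 8.80 and 6.32, and no Y-KO bar has a lambda part.

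Both large loci contributed in like amounts. Heavy chain segments summed to 0.940, 1.99 and 0.174 raw CPM in Y-KO and 4.14, 3.92 and 2.92 in Y-Scr. Kappa segments summed to 0.901, 1.82 and 0.739 raw CPM in Y-KO and 3.95, 4.02 and 3.22 in Y-Scr. Neither chain overlapped between the groups, with ratios of 0.282 for heavy and 0.309 for kappa. Heavy segments supplied 44.6% to 49.9% of V counts in Y-Scr and 51.1%, 52.2% and 19.05% in Y-KO, so Y-KO replicate 3 was the library with a mainly kappa composition. Lambda is a minor light chain in the mouse, and Iglv1 (chromosome 16, 18903767 to 18904250) was its 1 kept segment. Iglv1 had 11, 36 and 9 counts in Y-Scr and 0 in each Y-KO library. Taking 3 counts over the Y-KO group as the limit that a count of 0 allows (0.0209 raw CPM), it was at least 18.4-fold lower, and the other bounds use the same limit. That limit treats each read as independent and pools the libraries of a group without their spread. Where both reads of a pair were counted, the bounds may be too large.

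Fewer V segments were counted in Y-KO. Of the 60, there were 12, 14 and 6 with at least 1 count in the Y-KO libraries and 41, 40 and 36 in the Y-Scr libraries (10.7 ± 4.16 and 39 ± 2.65, SD, n = 3). Heavy chain segments numbered 8, 8 and 2 against 19, 16 and 13, and kappa segments 4, 6 and 4 against 21, 23 and 22. Neither chain overlapped between the groups. Over each group, 24 segments had a count in some Y-KO library and 57 in some Y-Scr library. Since the threshold of 10 summed counts can be reached through the group with more V reads, all 348 rows were also counted: 27 had a count in Y-KO and 108 in Y-Scr. The 53 rows below the threshold held 18 Y-KO counts and 235 Y-Scr counts.

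A library with fewer V reads shows fewer segments at the same diversity, so each library was thinned to the 42 V counts of the smallest. The number of segments then averaged 10.7, 11.8 and 6.0 in Y-KO and 24.9, 23.1 and 21.9 in Y-Scr (9.49 ± 3.07 and 23.3 ± 1.5, SD, n = 3). The ratio of the groups was 0.408 thinned and 0.274 unthinned, with no overlap either way. Reads were counted singly, and 132 of the 149 non-zero values (88.6%) were even, as when both reads of a pair fall in a segment. With counts halved and thinned to 21, an alternative chosen after seeing the data, the numbers were 9.43, 10.1 and 6.0 against 16.2, 15.2 and 15.1, a ratio of 0.549. Counts are reads and not molecules, so intervals cover counting error only and may be too narrow where both reads of a pair were counted.

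**Figure D2:**
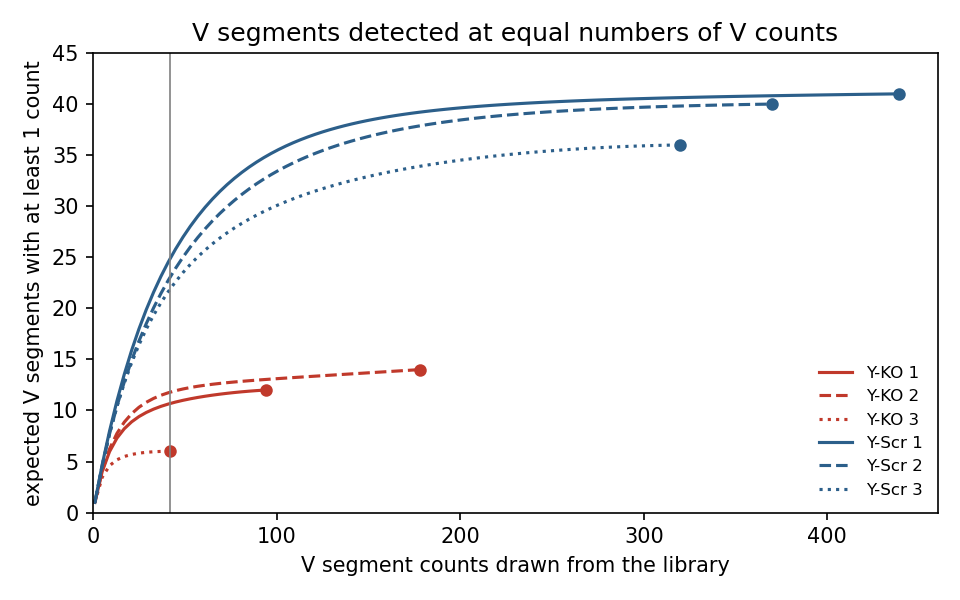
Expected number of V segments with at least 1 count (vertical axis) against the number of V counts drawn from a library (horizontal axis), 1 line per library ending in a point at its full count, with a vertical line at 42 counts. There the Y-KO lines lie between 6.0 and 11.8 segments and the Y-Scr lines between 21.9 and 24.9.

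How evenly the counts were spread over the detected segments overlapped between the groups. Pielou's evenness, which is 1 when all detected segments have equal counts, was 0.905, 0.907 and 0.928 in Y-KO and 0.958, 0.922 and 0.925 in Y-Scr. The means were 0.914 ± 0.0124 and 0.935 ± 0.0198 (SD, n = 3). The heavy chain alone did not overlap, at 0.904, 0.900 and 0.811 against 0.951, 0.966 and 0.912. Those Y-KO values rest on 48, 93 and 8 heavy chain counts, the 8 of replicate 3 lying in 2 segments. The inverse Simpson index, which counts segments as if all were equally abundant and so follows their number, was 8.32, 9.42 and 4.85 in Y-KO and 30.6, 22.6 and 23.2 in Y-Scr.

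The leading segment differed in every library and took more of the V counts in Y-KO. Such a share moves with the number of segments counted, and it was not compared at equal numbers of V counts. In Y-KO replicate 1 it was Igkv2-112 with 16 of 94 counts (17.0%, exact interval 10.1% to 26.2%), level with Igkv15-103, also at 16. In Y-KO replicate 2 it was Igkv4-59 with 36 of 178 counts (20.2%, 14.6% to 26.9%), and in Y-KO replicate 3 Igkv6-23 with 12 of 42 (28.6%, 15.7% to 44.6%). All of these are kappa segments, as are those that led in the Y-Scr libraries. In Y-Scr replicate 1 Igkv6-17 led with 30 of 439 (6.83%, 4.66% to 9.61%), in replicate 2 Igkv1-117 with 42 of 370 (11.4%, 8.30% to 15.03%), and in replicate 3 Igkv6-15 with 26 of 320 (8.12%, 5.38% to 11.7%). The shares did not overlap between the groups, while the interval of Y-KO replicate 1 overlapped those of Y-Scr replicates 2 and 3, and that of Y-KO replicate 2 overlapped Y-Scr replicate 2. The lower limit of Y-KO replicate 3 (15.7%) lay just above the upper limit of Y-Scr replicate 2 (15.03%). As these intervals treat each read as independent, they may be too narrow where both reads of a pair were counted.

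**Figure D3:**
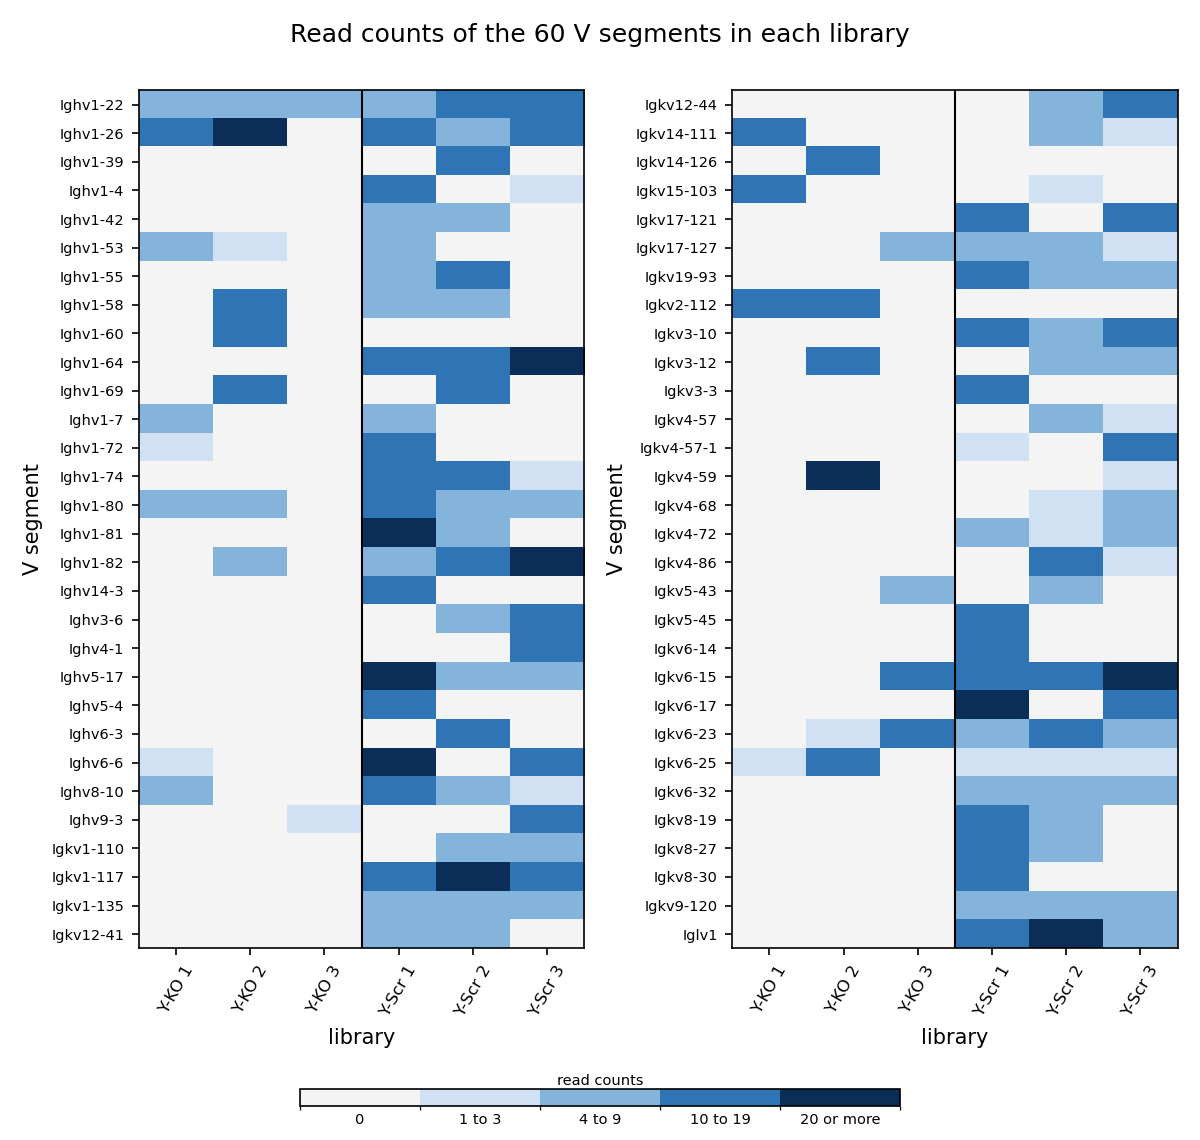
Read counts of the 60 V segments (rows, in alphabetical order over both panels) in the 6 libraries (columns), in 5 colour classes from 0 (palest) to 20 or more (darkest). The Y-KO columns are mostly at 0, with 12, 14 and 6 coloured rows against 41, 40 and 36 in Y-Scr, and Ighv1-22 is coloured in all 6.

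Of the 60 segments, 36 were counted in Y-Scr libraries only, 3 in Y-KO libraries only and 21 in both. Segments at 0 in all Y-KO libraries were 60% of the 60, against 16.1% of the 6886 rows of the whole table with a summed count in the same range of 10 to 70. Segments at 0 in all Y-Scr libraries were 5%, against 6.42% of those rows. By chain, 13 of 26 heavy, 22 of 33 kappa and the 1 lambda segment were counted in Y-Scr only. In all 3 libraries of a group there were 20 segments for Y-Scr and 1 for Y-KO.

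Individual segments had at most 42 counts in a library, which is too few for most to be tested one by one. The edgeR quasi-likelihood test, with Benjamini-Hochberg adjustment over 17837 genes, took in 3 of the 60. It called 1 lower in Y-KO and 0 higher at an adjusted p under 0.05 (1 had an unadjusted p under 0.05), against 8.27% lower and 7.82% higher of all genes tested. With no filter all 60 were tested and 4 were lower and 0 higher, against 6.69% and 5.24% of 29659 rows. DESeq2 called 5 lower and 0 higher of the 26 to which it gave an adjusted p, against 9.06% and 7.80% of 21451 genes. The 1 called was Ighv1-64 (chromosome 12, 115471165 to 115471651), with 0 counts in each Y-KO library against 12, 16 and 26 in Y-Scr (edgeR adjusted p = 0.0231), a difference of at least 17.8-fold. This call was lost under 7 of 11 alternatives, among them leaving out any of the libraries except Y-KO replicate 3, and its adjusted p ranged from 0.00267 to 0.128.

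Segments with many Y-Scr counts and none in Y-KO came from all 3 chains. Igkv1-117 (chromosome 6, 68098030 to 68098811) had the most counts of the 60, at 18, 42 and 10 in the Y-Scr libraries against 0 in each Y-KO library (at least 23.1-fold lower). Ighv5-17 (chromosome 12, 113822769 to 113823290) had 26, 6 and 9 against 0, at least 13.5-fold lower. These segments were present in every Y-Scr library. Igkv6-17 (chromosome 6, 70348423 to 70348977) had 30, 0 and 11, and Ighv1-81 (chromosome 12, 115883899 to 115884332) 28, 8 and 0, with 0 in each Y-KO library (at least 13.5-fold and 11.9-fold lower). For these a Y-Scr library was also at 0, so the groups overlapped.

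Other segments were counted in both groups. Ighv1-82 (chromosome 12, 115916158 to 115916625) had 0, 6 and 0 counts in Y-KO against 6, 18 and 22 in Y-Scr. The pooled share was 7.58-fold lower in Y-KO (counting interval 3.23 to 21.7). Igkv6-15 (chromosome 6, 70383453 to 70383976) had 0, 0 and 10 counts in Y-KO against 12, 12 and 26 in Y-Scr (log2 fold change -2.08, SE 1.37, edgeR adjusted p = 0.352). All its Y-KO counts came from replicate 3, and without that library it passed the test (edgeR adjusted p = 0.0206). Igkv6-23 (chromosome 6, 70237393 to 70237939) had 0, 1 and 12 against 8, 14 and 6, and its groups overlapped.

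The pair of near-identical heavy chain segments printed above was counted in both groups at overlapping levels. Ighv1-26 (chromosome 12, 114751992 to 114752425) had 14, 24 and 0 counts in Y-KO against 10, 6 and 12 in Y-Scr (log2 fold change 0.61, SE 1.18, edgeR adjusted p = 0.777). Ighv1-22 (chromosome 12, 114709893 to 114710326) had 4, 8 and 6 counts in Y-KO against 4, 10 and 12 in Y-Scr. The pooled share of Ighv1-22 was 1.43-fold lower in Y-KO, with a counting interval of 0.753 to 2.76. The direction of Ighv1-26 turned without Y-KO replicate 2 (log2 fold change -0.31) and with the replicate number as a block (-0.010), and it passed the test in neither. Ighv1-26 was at 0 in Y-KO replicate 3, the library with the fewest heavy chain counts.

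A few segments had their counts mostly in Y-KO, each in 1 or 2 libraries. Igkv2-112 (chromosome 6, 68196965 to 68197690) had 16, 14 and 0 counts in Y-KO against 0 in each Y-Scr library, at least 10.1-fold higher. Igkv4-59 (chromosome 6, 69415202 to 69415741) had 0, 36 and 0 against 0, 0 and 2, and Igkv15-103 (chromosome 6, 68414424 to 68414909) had 16, 0 and 0 against 0, 2 and 0. In each, at least 1 Y-KO library was at 0, so the groups overlapped. The other segments counted in Y-KO only, named after their values were seen, were the pseudogene Ighv1-60 with 0, 16 and 0 counts and Igkv14-126 with 0, 12 and 0. The 2 pseudogenes, Ighv1-60 and Ighv8-10, held 7.45%, 8.99% and 0% of the V counts of the Y-KO libraries and 3.19%, 1.35% and 0.625% in Y-Scr, and the groups overlapped.

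Y-Scr libraries shared most of their segments, and Y-KO libraries shared fewer. Pairs of Y-Scr libraries had 25 to 28 segments in common, which was 61.0% to 77.8% of either library's segments. Y-KO replicates 1 and 2 had 6 in common (50% and 42.9%), namely Ighv1-26, Ighv1-22, Ighv1-80, Igkv2-112, Igkv6-25 and Ighv1-53. Y-KO replicate 3 shared 1 with replicate 1 and 2 with replicate 2. These overlaps move with the number of V reads in a library.

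Among subgroups of related segments, Ighv1, the largest heavy chain family of the mouse, supplied most heavy chain counts in both groups. Its 17 kept segments held 83.3%, 100% and 75% of the heavy counts of Y-KO against 62.6%, 78.8% and 54.1% for Y-Scr, so the groups overlapped. The Ighv5 segments had 0 Y-KO counts against 51 in Y-Scr, and the Ighv6 segments 1 against 50. Among kappa subgroups, Igkv6 held 4.35%, 12.9% and 64.7% of kappa counts in the Y-KO libraries and 32.1%, 18.3% and 30.7% in the Y-Scr libraries. The groups overlapped, and Y-KO replicate 3 held both the highest share and most of the Y-KO counts of Igkv6. The 3 Igkv1 segments held 0% in each Y-KO library against 12.4%, 29.6% and 12.3% in Y-Scr. Igkv2, with the 1 segment Igkv2-112, held 34.8%, 16.5% and 0% in Y-KO against 0% in each Y-Scr library. Along the heavy chain locus, the V rows nearer to the J segments had 9 of 48, 0 of 93 and 2 of 8 heavy counts in Y-KO (18.75%, 0% and 25%) against 38.4%, 18.2% and 45.9% in Y-Scr. In the kappa locus the nearer rows held 4.35%, 69.4% and 88.2% against 68.4%, 47.9% and 68.7%. Neither locus separated the groups by position.

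Reads on the J segments, which a V segment is joined to, were few in Y-KO. The J segments had 1, 1 and 0 counts in Y-KO against 54, 49 and 62 in Y-Scr. Per 100 V counts this was 1.06, 0.562 and 0 in Y-KO and 12.3, 13.2 and 19.4 in Y-Scr, so the groups did not overlap on this measure either. The D segments had 0 counts in each Y-KO library against 4, 0 and 4 in Y-Scr, so the groups overlapped. A read that overlaps a V and a J segment fits 2 genes and was left out by the counter's defaults, so the J counts are not the number of joined transcripts.

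The constant genes encode the part of the chain that sets the antibody class. Of 13 in the table, 8 were tested, and 3 were lower in Y-KO and 0 higher (8.27% and 7.82% of all genes tested), with 5 not passing. Their median log2 fold change was -2.15, against -0.03 for all genes tested. Ighm, the heavy chain of IgM, stood at 20.01, 18.4 and 20.7 CPM in Y-KO and 79.3, 71.0 and 74.5 in Y-Scr (log2 fold change -1.93, SE 0.10, edgeR adjusted p = 2.15e-05). Y-KO libraries were close together here, although their V segment sums were not. Ighd, the IgD heavy chain carried with IgM by naive B cells, stood at 0.289, 0.0903 and 0.636 CPM against 4.97, 6.96 and 6.51 (-4.18, SE 0.54, edgeR adjusted p = 0.00182). Igkc, the kappa constant gene, stood at 3.36, 1.87 and 5.74 CPM against 19.4, 17.5 and 17.0 (-2.30, SE 0.35, edgeR adjusted p = 0.00356). These 3 genes passed in all 12 alternatives.

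Genes of other classes did not pass. Igha, the heavy chain of the mucosal antibody IgA, averaged 2.02 ± 1.07 CPM in Y-KO against 4.09 ± 0.862 in Y-Scr (SD, n = 3), a log2 difference of -1.02 with SE 0.40 (edgeR adjusted p = 0.121). Lambda constant genes Iglc1, Iglc2 and Iglc3 had log2 fold changes of -2.45, -2.46 and -2.005 with edgeR adjusted p of 0.258, 0.160 and 0.237. Ighg2b, an IgG heavy chain gene, had 36, 61 and 34 counts in Y-KO against 20, 36 and 47 in Y-Scr. Its log2 fold change was in the other direction, at 0.49 (SE 0.54, edgeR adjusted p = 0.599), and its groups overlapped. Jchain, which links IgM and IgA into polymers, had 10, 0 and 30 counts in Y-KO against 44, 65 and 82 in Y-Scr (edgeR adjusted p = 0.207). Its groups did not overlap, but Y-KO ran from 0 to 30.

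**Figure D4:**
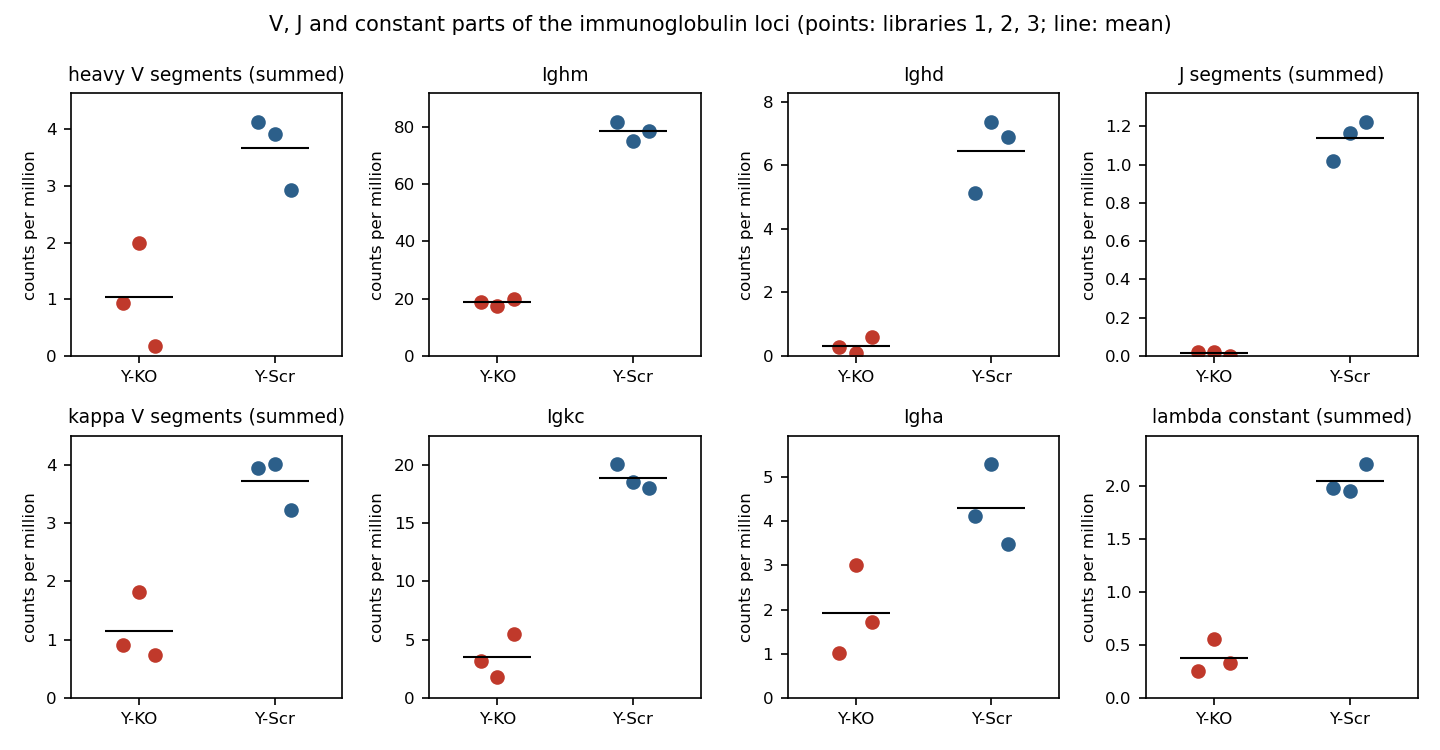
Levels in raw CPM (vertical axes, each starting at 0) of summed heavy V, kappa V and J segments, of Ighm, Ighd, Igkc and Igha, and of the summed lambda constant genes; points are libraries and lines are group means (n = 3). In all 8 panels the Y-KO points lie below the Y-Scr points, and the Y-KO points of Ighm are closer together than those of the V segments.

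Relative to their constant genes, V segment counts overlapped between the groups. Kappa V counts per 100 Igkc counts were 28.2, 102 and 13.4 in Y-KO and 19.6, 21.7 and 17.9 in Y-Scr. Heavy V counts per 100 Ighm counts were 4.95, 11.4 and 0.876 against 5.05, 5.21 and 3.71. In both ratios the Y-KO values lay on both sides of the Y-Scr values, with replicate 2 highest and replicate 3 lowest. Ighm counts per Ighd count were 69.3, 203.5 and 32.6 in Y-KO and 15.9, 10.2 and 11.4 in Y-Scr, without overlap. Per kb of gene length, the highest V segment, Igkv1-117, reached 1.20 ± 0.994 CPM per kb in Y-Scr, against 33.8 ± 2.41 for Igkc there.

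Markers of the cells that transcribe V segments were compared next, as lists chosen with earlier results known. Of 18 tested B cell genes 8 were lower in Y-KO, 0 higher and 10 did not pass, with a median log2 fold change of -1.82. Over all genes tested, 8.27% were lower and 7.82% higher. Cd79a, a subunit of the B cell receptor, had 32, 36 and 26 counts against 285, 222 and 253. The B cell kinase Blk was 23.7-fold lower and the IgM receptor Fcmr 6.75-fold lower (edgeR adjusted p = 0.00418 and 0.00359). Cd79a, Blk and Fcmr passed in all 12 alternatives. The summed level of the B cell list was 74.5 to 120 CPM in Y-KO and 150 to 156 CPM in Y-Scr.

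Plasma cell genes did not move 1 way. Of 15 tested, 3 were lower (Sec11c, Pou2af1 and Irf4), 2 higher (Txndc5 and Fkbp11) and 10 did not pass. The median log2 fold change was -0.15. Over all genes tested, 8.27% were lower and 7.82% higher. Sec11c, a signal peptidase subunit, averaged 72.6 ± 7.42 CPM in Y-KO against 104 ± 8.22 in Y-Scr (SD, n = 3), and Irf4, a factor needed for plasma cell formation, was 1.66-fold lower. Txndc5, a disulfide isomerase of the endoplasmic reticulum that many secreting cells express, was 1.25-fold higher. Without Y-Scr replicate 2 none of these 5 passed (edgeR adjusted p from 0.0716 for Sec11c to 0.197 for Irf4). Tnfrsf17, the plasma cell survival receptor, had 0 counts in all 6 libraries. Of 6 genes for recombination and the precursor B cell receptor, 2 were tested. Of these 1 was lower in Y-KO and 0 higher, against 8.27% and 7.82% of all genes tested. Rag2, Igll1 and Vpreb2 were at 0 in all libraries. Rag1 had 0, 6 and 0 counts in Y-KO against 0, 0 and 2 in Y-Scr. Vpreb1 had 8, 14 and 16 in Y-KO against 16, 0 and 6 in Y-Scr. Its log2 fold change was in the other direction, at 1.02 (SE 1.14, edgeR adjusted p = 0.603), and its groups overlapped. Dntt, which adds bases at the joints, was 3.13-fold lower (edgeR adjusted p = 0.0492), a call lost when any 1 library was left out except Y-KO replicate 3 (0.0616 to 0.182).

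Among 9 tested genes for B cell growth factors and antibody binding, 2 were lower and 3 higher, against 8.27% and 7.82% of all genes tested. Tnfsf13, which encodes the plasma cell factor APRIL, was 3.66-fold lower, and Il6 was 7.78-fold lower (edgeR adjusted p = 0.00181 and 0.00620). The B cell factor gene Tnfsf13b was 1.36-fold higher and the IgG receptor gene Fcgr1 3.53-fold higher (edgeR adjusted p = 0.0430 and 0.00600). With the close library pairs summed, Il6 and Fcgr1 did not pass (0.0644 and 0.0994). Tnfsf13b did not pass when any 1 library was left out except Y-KO replicate 3 (0.0810 to 0.158). Of 7 tested germinal centre and class switching genes, 1, Mybl1, was lower (against 8.27% of all genes tested) and 6 did not pass. Mybl1 was lost in the same way (edgeR adjusted p from 0.0553 to 0.1201).

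T cell receptor V segments, the counterpart in T cells, also did not overlap between the groups. The 73 kept by the same rule summed to 12.8, 10.4 and 9.09 raw CPM in Y-KO and 47.5, 40.4 and 40.3 in Y-Scr. The means were 10.8 ± 1.88 and 42.7 ± 4.12 raw CPM (SD, n = 3), 3.98-fold apart. The number with a count was 28, 24 and 32 against 68, 63 and 67. Of 11 tested T cell genes, 10 were lower, against 8.27% of all genes tested. Whether the immunoglobulin and T cell receptor segments differed from each other in their change was not tested.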

How the data were processed

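The authors deposited a table of unnormalized read counts by gene. Per the file headers featureCounts 1.5.3 made them on GRCm39 genes of Ensembl release 112 with default options, so that single reads were counted without strand and reads fitting several places or genes were left out. Per the submitters' processing notes, FastQC 0.12.1, MultiQC 1.13, Trimmomatic 0.39 and STAR 2.5.2b were also used. Per the labels' protocols, libraries were stranded and poly-A enriched. The deposited gene length was used only for values per kb.

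Symbols, biotypes and transcript sequences came from GENCODE M21 by gene ID, and 51880 of 57186 IDs (90.7%) had a symbol. Coordinates are those of the deposited file. Groups follow the sample titles. Shares are V counts relative to the library total. The test of counts was the quasi-likelihood test of edgeR 4.0.16 (R 4.3.3), after filterByExpr (minimum count 10, minimum total 15), and TMM scaling, with group alone in the model and Benjamini-Hochberg adjustment. The SE is the log2 fold change divided by the square root of F. The step was tested on simulated data. Thinning used the exact expected number of segments. Exact intervals are at 95% and the floor is 3 counts. DESeq2 1.42.0, other scalings and filters, a replicate block, close pairs summed, halved counts and leaving out each library were alternatives. Plots were drawn with matplotlib 3.10.9.

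The segments, gene lists and rules were chosen with earlier results of these data known. Named are the 10 segments with the highest mean level, the highest of each chain in each library, called segments, constant genes with a mean of at least 1 CPM, Jchain, and up to 4 genes with the smallest p of each list. Other genes named were chosen after their values were seen. The values of a gene in the B cell list are not reported here.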

Additional observations from a re-analysis of the deposited data

How the results depend on the processing

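The number of V segments called by edgeR was 1 as reported (3 tested), 0 with close library pairs summed (Y-KO 1 with 2 and Y-Scr 2 with 3; 12 tested, 7 at an unadjusted p under 0.05), 0 with halved counts (none tested), 4 with no filter (60 tested) and 5 with DESeq2, all lower in Y-KO. Leaving out 1 library gave 0 to 6, the 6 without Y-KO replicate 3 being 5 lower and Igkv2-112 higher, and the other 5 libraries each giving 0 (edgeR, with 1 to 6 at an unadjusted p under 0.05). The constant genes called were 3 to 4 when 1 library was left out and 3 in the other alternatives.

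The ratio of Y-KO to Y-Scr in summed share was 0.280, with 0.176 to 0.361 when 1 library was left out and 0.245 with no minimum count. For segments detected it was 0.274, and 0.231 to 0.333 without 1 library, 0.408 thinned to the smallest library, 0.386 thinned to the second smallest without Y-KO replicate 3 and 0.549 with halved counts thinned, the last 2 chosen after seeing the data. For evenness it was 0.977, and 0.969 to 0.989 without 1 library, 0.924 for heavy segments, 0.614 divided by the log of all segments and 0.296 as the inverse Simpson index; the last 2 follow the number of segments by construction. Scaled by library size alone, the median gene was at a log2 fold change of -0.17 in place of -0.03. No called value changed sign, while Ighv1-26, which was not called, went from 0.61 to -0.31 without Y-KO replicate 2.

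Replicate numbers only name the libraries: same-numbered libraries had correlations of deviations of -0.0084, 0.0049 and -0.0145, and not every library correlated best with its own number. With the replicate number as a block, 0 segments (edgeR, 3 tested, 1 at an unadjusted p under 0.05) and 3 constant genes were called, and Ighv1-26 stood at -0.010.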
